A study of Solenopsis invicta with 64 samples.

Results

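The 68 genes described here carry the symbol numbers LOC105194434 to LOC105194501 in a brain and ovary RNA-seq study of the fire ant Solenopsis invicta. They were taken by number alone and are 68 of the 15710 genes counted. The range was chosen by measured values of the same data: in an earlier look at the brain libraries its end genes, and LOC105194441 within it, were higher where the animal carried the Sb supergene variant. The range has been called a social chromosome block, and the RefSeq gene table of the assembly UNIL_Sinv_3.0 does not bear that name out. Both end genes lie on chromosome 16, but only 8 of the 63 members with a place do. Another 30 members lie on chromosome 14, 11 on chromosome 9, 7 on chromosome 6, 2 each on chromosomes 10 and 4, and 1 each on chromosomes 3, 7 and 15, while 5 have no place. The genes are therefore called a symbol-number block here.

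Fire ant queens come in a pair of social forms. A monogyne colony has 1 reproducing queen and a polygyne colony has many, and the form follows the variants SB and Sb of a supergene on chromosome 16, the social chromosome. A supergene is a set of linked genes that is inherited as a unit because recombination within it is suppressed. Queens of monogyne colonies are SB/SB, whereas polygyne colonies hold queens and workers that carry Sb. The gene table used here gives symbols without product names for the members, so no function is assigned to any of them, and it does not mark the limits of the supergene.

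The samples are a single brain and a single ovary from each of 32 winged, unmated, reproductively mature gynes (young queens), caught in the field on flight days and frozen there. They fall into 4 groups of 8 animals. In polygyne colonies the groups are Sb/Sb, SB/Sb and SB/SB, and from monogyne colonies there is SB/SB alone. Libraries were made by Smart-seq2. RNA came from brains with the RNeasy Micro kit and from ovaries with the Mini kit, so kit and tissue cannot be told apart. The animal codes of the 24 polygyne gynes share 9 numbers, of which 7 hold all 3 genotypes, and no number is shared with a monogyne gyne; what the number stands for is not stated. Social form therefore cannot be told apart from whatever the number marks. A tissue library is a bulk sample, in which fewer cells of a type and less RNA per cell give the same reading.

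Brain libraries held 9.46 to 26.95 M counts (median 19.6 M) and 31 ovary libraries held 10.1 to 22.6 M (median 17.5 M). The ovary of the polygyne SB/SB animal 104D held 73573 counts and was left out, which leaves 7 polygyne SB/SB ovaries. The members took 0.413 to 1.87% of the counts of a library. The vitellogenin receptor gene LOC105200757, an ovary marker, ranged from 0 to 19.6 counts per 1e6 library counts (CPM, with TMM-scaled library sizes) in brains and from 12.6 to 566 CPM in ovaries. The brains 1E, 16C and 16D stood apart: their median correlation with the other brains was 0.652 to 0.748, against 0.833 to 0.923 for the remaining 29. Of the ovaries, 104G, 19G, 1E, 15G and 16C stood at 0.767 to 0.820, against 0.873 to 0.960 for the remaining 26. Counts of called members are also given without these libraries where they change. The share of all genes called is not given for those refits, so their counts are no result about the members.

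The 8 members on chromosome 16 form an almost unbroken run in the gene table: LOC105194441, LOC105194434, LOC105194453, LOC105194461, LOC105194469, LOC105194481, LOC105194495 and LOC105194501, in that order. The only other counted gene inside the run is LOC105199833, which sits between LOC105194441 and LOC105194434. The count files number their genes in a running order of their own. There the same 8 genes take the numbers 396 to 404 with 1 gap, and the unplaced member LOC105194487, number 402, fills it between LOC105194481 (401) and LOC105194495 (403). The other 59 members carry numbers of 3903 to 3966. In the gene table LOC105194434 overlaps LOC105194453, and LOC105194441 overlaps LOC105199833. The sources used here do not say whether counting used the strand, so reads in those overlaps cannot be assigned with certainty, and in all, 19 members overlap another gene.

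**Figure D1:**
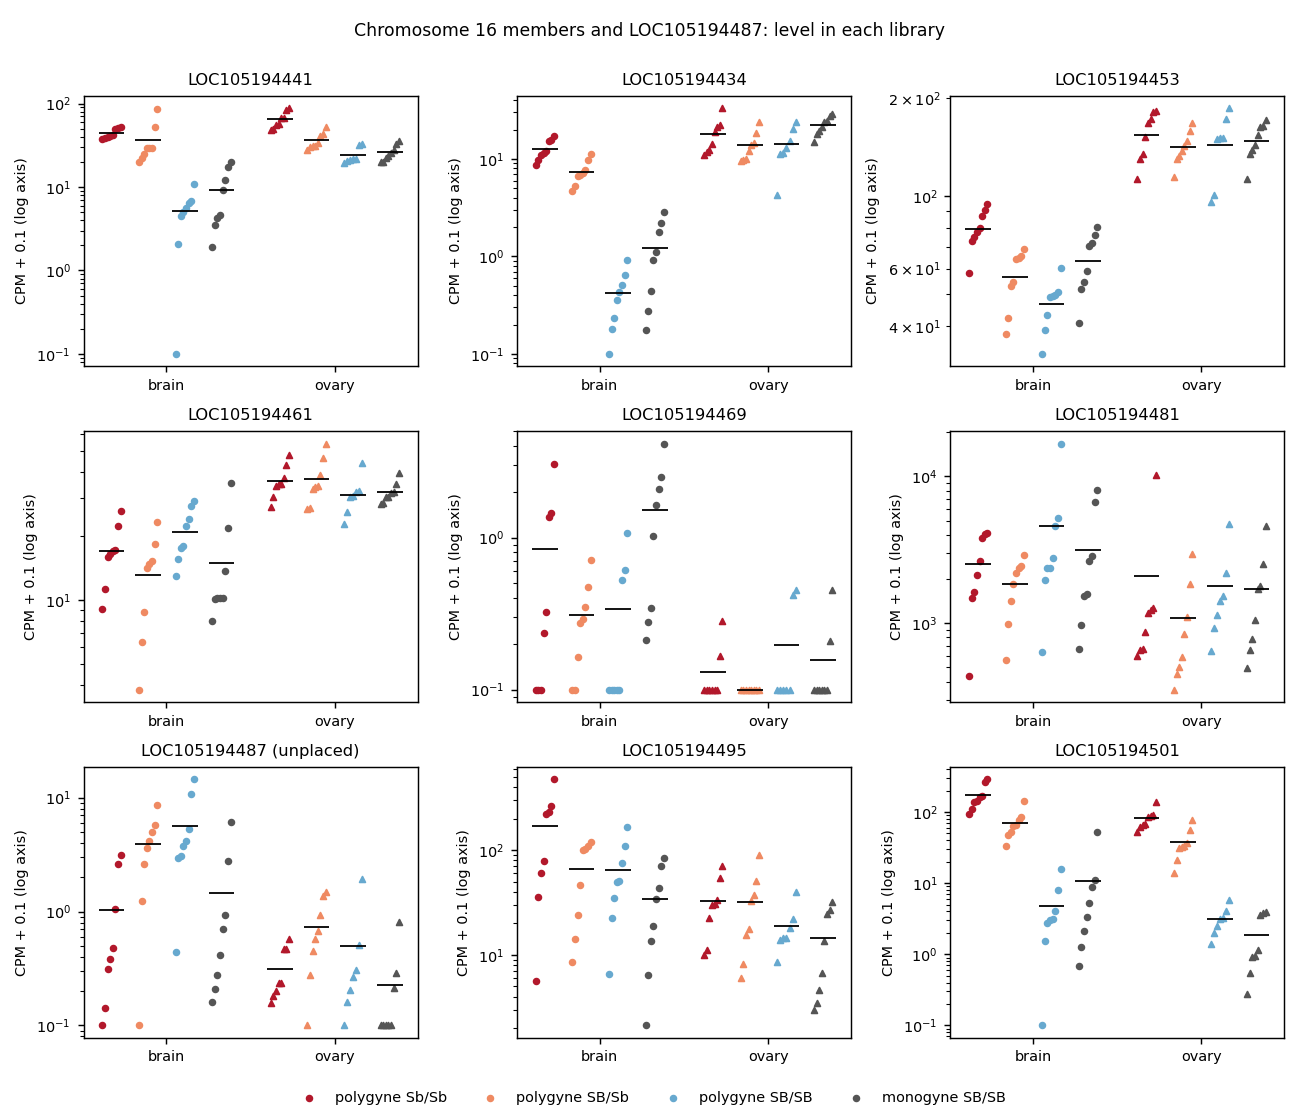
Level of the 8 chromosome 16 members and of the unplaced LOC105194487 in each library, as CPM + 0.1 on a log axis, with brains (circles) left and ovaries (triangles) right; bars are group means. Among polygyne brains, LOC105194434, LOC105194441 and LOC105194501 are higher in every brain with Sb than in every brain without it, while the monogyne brain 239A, at 53.0 CPM, lies above 3 SB/Sb brains for LOC105194501. In the ovary LOC105194501 is higher in every library with Sb than in every library without.

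LOC105194434, LOC105194441 and LOC105194501, all on chromosome 16, are the members that were known beforehand to be higher in brains with Sb. In the brain LOC105194434 averaged 12.5 ± 3.05 CPM in Sb/Sb, 7.30 ± 2.16 CPM in SB/Sb, 0.323 ± 0.271 CPM in polygyne SB/SB and 1.12 ± 0.97 CPM in monogyne SB/SB animals (SD, n = 8 each). The lowest, median and highest values were 8.64, 11.7 and 17.1 CPM in Sb/Sb brains and 4.56, 6.87 and 11.1 CPM in SB/Sb brains, against 0, 0.293 and 0.826 CPM in polygyne SB/SB brains. Every brain with Sb was above every polygyne brain without it, and also above the highest monogyne brain, 239A at 2.75 CPM. Behind these values stand 1952 counts over the Sb/Sb brains and 43 over the polygyne SB/SB brains.

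LOC105194501 in the brain had a lowest, median and highest level of 94.3, 155 and 289 CPM in Sb/Sb and 33.8, 63.99 and 141 CPM in SB/Sb animals, against 0, 2.99 and 15.5 CPM in polygyne SB/SB animals. Monogyne SB/SB brains lay between 0.591 and 11.1 CPM except for 239A, at 53.0 CPM. That monogyne brain is above 3 of the 8 SB/Sb brains, so the gap between brains with and without Sb holds within polygyne animals only.

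LOC105194441 in the brain stood at 38.0, 41.6 and 52.4 CPM (lowest, median, highest) in Sb/Sb and at 20.1, 29.0 and 86.8 CPM in SB/Sb animals, against 0, 5.20 and 10.6 CPM in polygyne SB/SB animals. Monogyne SB/SB brains reached 19.6 CPM and also stayed below every brain with Sb. LOC105199833, the gene that overlaps LOC105194441 and is no member, showed the same order, at 28.3 ± 5.68 CPM in Sb/Sb, 18.6 ± 9.80 CPM in SB/Sb, 3.27 ± 2.35 CPM in polygyne SB/SB and 7.10 ± 5.24 CPM in monogyne SB/SB brains.

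LOC105194453 differed by much less. It averaged 79.5 ± 11.6 CPM in Sb/Sb, 56.3 ± 11.5 CPM in SB/Sb, 46.7 ± 8.38 CPM in polygyne SB/SB and 63.1 ± 13.8 CPM in monogyne SB/SB brains. Its Sb/Sb and polygyne SB/SB brains overlapped, since the lowest Sb/Sb brain, 5G, had 58.1 CPM and the highest polygyne SB/SB brain, 107E, had 60.2 CPM.

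Because these comparisons chose the range, they are given as a description, and nothing is read from the counts. With edgeR's quasi-likelihood fit over all genes and an adjusted p under 0.05 as a call, Sb/Sb against polygyne SB/SB brains gave 4 called members of 64 tested, all higher and all on chromosome 16, where 0.953% of all genes tested were called and 0.598% were called higher. Their log2 changes were 5.27 ± 0.65 (LOC105194434), 5.20 ± 0.78 (LOC105194501), 3.12 ± 0.53 (LOC105194441) and 0.77 ± 0.16 (LOC105194453) (± SE). SB/Sb against polygyne SB/SB brains, which shares its control animals, gave 3 called members of 64, where 0.252% of all genes were called: 4.49 ± 0.62 (LOC105194434), 3.92 ± 0.73 (LOC105194501) and 2.86 ± 0.53 (LOC105194441). Of 778 chromosome 16 genes tested outside the block, 5.14% were called for Sb/Sb and 1.16% for SB/Sb brains, also above the shares of all genes. The median log2 change of all 64 members was -0.11 for Sb/Sb and -0.02 for SB/Sb brains, against -0.02 and -0.01 over all genes. Each of these calls was also made without the brains 1E, 16C and 16D and in each of the 16 fits that left out 1 brain, but that of LOC105194441 for SB/Sb was lost when only the 2 groups compared were fitted (log2 2.84). These refits reuse the brains whose values chose the range, so they are a description as well. DESeq2 called 11 members for Sb/Sb, of which 4 lie on chromosome 16. For DESeq2 the share of all genes called is not given here or below, so its counts are no result about the members.

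**Figure D2:**
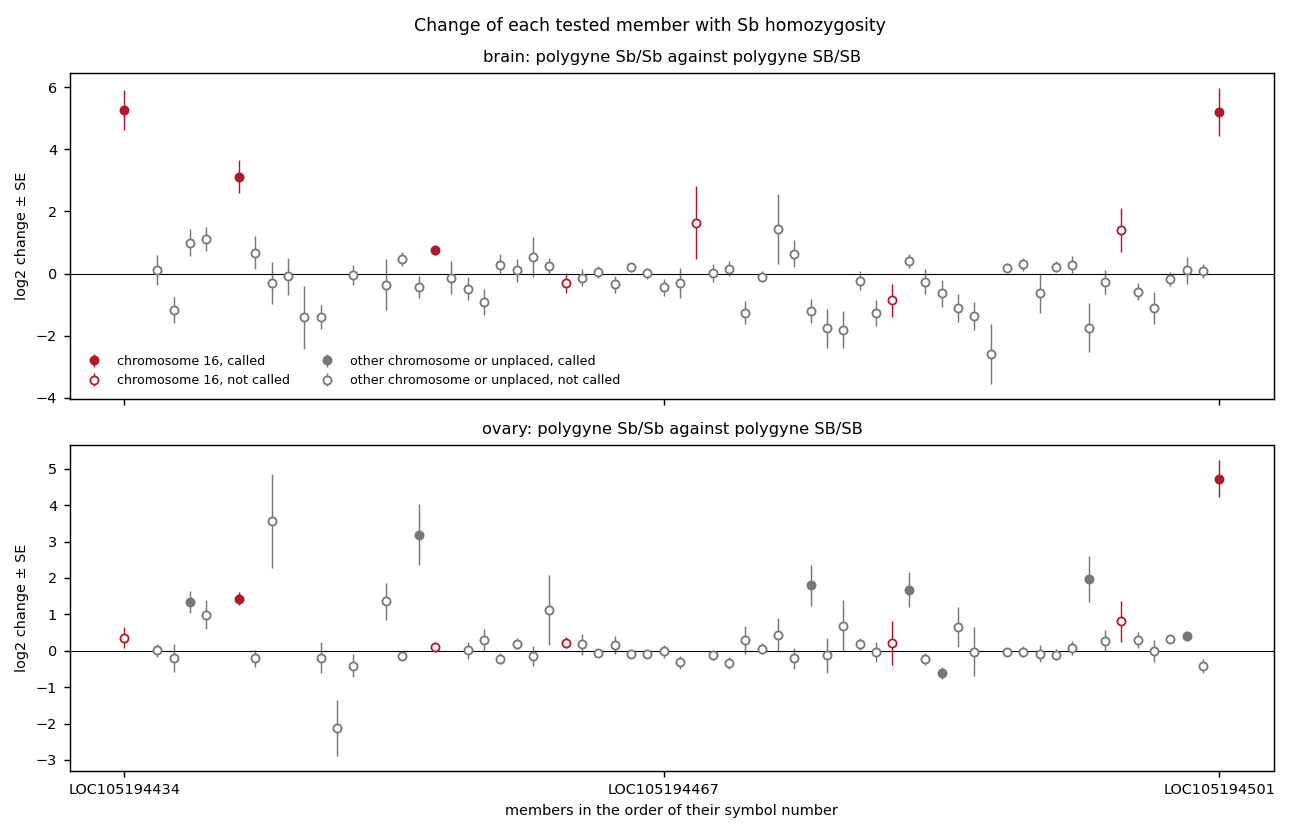
Log2 change of Sb/Sb against polygyne SB/SB for each tested member, in the order of the symbol numbers, in the brain (top) and the ovary (bottom); bars are SE and filled points passed an adjusted p under 0.05. The 4 filled points of the brain are all on chromosome 16, and 2 of the 9 filled points of the ovary are.

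At the other 4 genes of the run the genotypes overlapped in the brain. LOC105194481 took the most counts of any member and varied widely within each group: 436 to 4107 CPM in Sb/Sb, 561 to 2906 CPM in SB/Sb, 638 to 16712 CPM in polygyne SB/SB and 667 to 8093 CPM in monogyne SB/SB brains. All 4 ranges overlap, and the highest value came from the polygyne SB/SB brain 15D. LOC105194495 ranged from 5.57 to 476 CPM in Sb/Sb and from 6.43 to 168 CPM in polygyne SB/SB brains. LOC105194461 averaged 16.8 ± 5.44 CPM in Sb/Sb and 20.7 ± 5.79 CPM in polygyne SB/SB brains, and LOC105194469 was at or under 4.06 CPM in every brain. None of the 4 was called between genotypes. The unplaced LOC105194487 averaged 0.927 ± 1.19 CPM in Sb/Sb and 5.53 ± 4.66 CPM in polygyne SB/SB brains, with overlap and no call.

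In the ovary the 3 genes parted ways. Earlier results of these data already had all 3 as called with Sb, and the ovaries come from the same animals. Their ovary values are therefore a description as well. LOC105194501 kept the brain pattern, with a lowest, median and highest level of 53.0, 76.9 and 139 CPM in Sb/Sb and 14.0, 33.1 and 76.8 CPM in SB/Sb animals, against 1.29, 3.04 and 5.63 CPM in polygyne SB/SB animals (n = 7) and 0.177, 0.949 and 3.80 CPM in monogyne SB/SB animals. Every ovary with Sb was above every ovary without it. LOC105194441 was at 47.7, 62.0 and 88.6 CPM in Sb/Sb ovaries, all above the 19.6, 21.3 and 32.3 CPM of polygyne SB/SB ovaries, while SB/Sb ovaries (27.6 to 52.1 CPM) overlapped both.

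LOC105194434 had no such gap in the ovary. It averaged 18.1 ± 7.54 CPM in Sb/Sb, 13.9 ± 5.01 CPM in SB/Sb, 14.1 ± 6.46 CPM in polygyne SB/SB (n = 7) and 22.2 ± 4.82 CPM in monogyne SB/SB ovaries (SD, n = 8 where not stated), and all 4 ranges overlap. LOC105194453 likewise lay within 96.1 and 187 CPM in every ovary, with means of 154, 141, 144 and 148 CPM in the same order. The log2 changes of Sb/Sb against polygyne SB/SB ovaries were 4.73 ± 0.51 for LOC105194501, 1.43 ± 0.18 for LOC105194441, 0.36 ± 0.28 for LOC105194434 and 0.10 ± 0.13 for LOC105194453.

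Over the block, Sb/Sb against polygyne SB/SB ovaries called 9 of 60 members tested (15%), 8 higher and 1 lower, where 14.1% of all genes were called, 8.21% higher and 5.88% lower. The members' share is near that of all genes, and it includes LOC105194441 and LOC105194501, which were known beforehand. Besides LOC105194441 and LOC105194501 the called members lie on chromosomes 6, 9 and 14. LOC105194438 (chromosome 6) rose by 1.34 ± 0.31 on the log2 scale (adjusted p = 0.00485, edgeR), at 22.6 to 91.1 CPM in Sb/Sb and 8.605 to 25.1 CPM in polygyne SB/SB ovaries. LOC105194484 (chromosome 14) fell by 0.61 ± 0.16 (log2 -0.61, adjusted p = 0.0112, edgeR). It had 106 to 256 CPM in Sb/Sb ovaries, all below the 263 to 302 CPM of polygyne SB/SB ovaries, and monogyne SB/SB ovaries lay at 255 to 326 CPM.

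The remaining called members stood at low levels or changed little. LOC105194452 (chromosome 9) had 0.334 to 1.22 CPM in Sb/Sb ovaries, 105 counts in all, and 0 to 0.332 CPM in polygyne SB/SB ovaries, 9 counts in all (log2 3.19 ± 0.84, adjusted p = 0.012, edgeR). LOC105194476, LOC105194482 and LOC105194493, all on chromosome 14, averaged 3.61, 2.27 and 0.927 CPM in Sb/Sb and 1.03, 0.706 and 0.227 CPM in polygyne SB/SB ovaries, with log2 changes of 1.80 ± 0.57, 1.68 ± 0.49 and 1.97 ± 0.63 (adjusted p = 0.033, 0.0222 and 0.0356, edgeR). LOC105194499 (chromosome 6) averaged 40.2 ± 6.80 CPM in Sb/Sb and 30.4 ± 4.12 CPM in polygyne SB/SB ovaries (log2 0.40 ± 0.14, adjusted p = 0.0439, edgeR). Leaving out 1 ovary lost the call of LOC105194499 without 5G, 16G, 19G, 107G, 1E, 15D, 30E or 107E, of LOC105194476 without 15G, 19G, 19D, 20D, 30E or 107E, of LOC105194493 without 107G, 1E, 16D, 19D, 20D or 107E, and of LOC105194482 without 19G. With the number in the animal code as a block, the calls of LOC105194499 and LOC105194482 were lost. Without the 5 ovaries that stand apart, edgeR called 4 members, LOC105194438, LOC105194441, LOC105194501 and LOC105194500, the last of these at a log2 change of -0.41 (adjusted p = 0.0496); the other 6 kept their sign.

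SB/Sb against polygyne SB/SB ovaries called 3 of 60 members, all higher, where 1.66% of all genes were called and 1.53% were called higher. LOC105194501, which was known beforehand, changed by 3.62 ± 0.49 on the log2 scale. LOC105194499 rose by 0.55 ± 0.14 (adjusted p = 0.0258, edgeR), with 44.6 ± 7.70 CPM in SB/Sb and 30.4 ± 4.12 CPM in polygyne SB/SB ovaries. LOC105194452 rose by 3.25 ± 0.84 (adjusted p = 0.0372, edgeR), on 122 counts in SB/Sb and 9 in polygyne SB/SB ovaries, and its levels overlap. That call was lost in 8 of 15 fits that left out 1 ovary (15A, 16C, 104A, 1E, 15D, 16D, 20D or 107E), where log2 changes over all 15 were 2.95 to 3.96. Without the ovaries that stand apart 2 members were called, LOC105194499 and LOC105194501, and LOC105194452 missed the threshold (log2 2.93, adjusted p = 0.0742, edgeR). The call of LOC105194499 was lost without 5A, 104A, 1E, 15D or 30E, with log2 changes of 0.50 to 0.61. With the number in the animal code as a block, LOC105194452 and LOC105194499 lost their calls.

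Sb/Sb against SB/Sb compares animals with both copies of Sb and animals with 1. In the brain edgeR called 0 of 64 members (0.159% of all genes were called, 0.149% lower and 0.00934% higher), with 11 at an unadjusted p under 0.05, and DESeq2 also called 0. LOC105194501 was at 172 ± 69.6 CPM in Sb/Sb and 70.6 ± 32.8 CPM in SB/Sb brains (log2 1.28 ± 0.66, adjusted p = 0.524, edgeR), and LOC105194434 at 12.5 ± 3.05 and 7.30 ± 2.16 CPM (log2 0.78 ± 0.53, adjusted p = 0.649, edgeR). All 8 chromosome 16 members had a fitted log2 change above 0, at 0.26 to 1.80, as had 5002 of all 10704 genes, and none of the 8 passed the test.

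In the ovary the same comparison called 1 of 60 members, where 0.139% of all genes were called, 0.00926% higher. LOC105194441 was at 64.6 ± 15.1 CPM in Sb/Sb and 36.1 ± 8.53 CPM in SB/Sb ovaries, a rise of 0.84 ± 0.17 on the log2 scale (adjusted p = 0.0192, edgeR). The groups overlap, with SB/Sb ovary 16C at 52.1 CPM above 2 of the 8 Sb/Sb ovaries. The call was lost in 5 of 16 fits that left out 1 ovary (19G, 104G, 19A, 30A or 104A; log2 0.76 to 0.94). It was also lost without the ovaries that stand apart (log2 0.73, adjusted p = 0.127, edgeR), and with the number in the animal code as a block. LOC105194501 was at 81.2 ± 27.1 CPM in Sb/Sb and 37.7 ± 19.9 CPM in SB/Sb ovaries (log2 1.11 ± 0.41, adjusted p = 0.603, edgeR).

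Set against the Sb/Sb mean, SB/Sb animals reached 41.1% in the brain and 46.4% in the ovary for LOC105194501, 58.2% in the brain for LOC105194434, and 83.4% in the brain and 55.9% in the ovary for LOC105194441. That brain percentage of LOC105194441 is raised by the SB/Sb brain 16C, which stands apart. It had 86.8 CPM, and the other SB/Sb brains had 20.1 to 51.9 CPM. A log2 test of SB/Sb against the midpoint of Sb/Sb and polygyne SB/SB called 0 of 64 members in the brain (0.0561% of all genes; 5 members at an unadjusted p under 0.05) and 0 of 60 in the ovary (0.12% of all genes; 4 at an unadjusted p under 0.05) with edgeR. DESeq2 called 1 member in the brain, LOC105194434, and 0 in the ovary. On the linear scale LOC105194501 in SB/Sb animals, at 70.6 CPM in the brain and 37.7 CPM in the ovary, lay below the homozygotes' midpoints of 88.3 and 42.1 CPM. On the log2 scale its departure was 1.32 ± 0.54 in the brain (adjusted p = 0.999) and 1.26 ± 0.35 in the ovary (adjusted p = 0.371, both edgeR), above the log2 midpoint. Where SB/SB is near 0, a level at the linear midpoint also lies above the log2 midpoint. SB/Sb brains averaged above the linear midpoint for LOC105194434 (7.30 against 6.43 CPM) and LOC105194441 (36.7 against 24.5 CPM). SB/Sb ovaries averaged below it (13.9 against 16.1 and 36.1 against 44.3 CPM). The brain values of all 3 genes chose the range, so their brain figures here are a description.

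Polygyne SB/SB against monogyne SB/SB animals share the genotype and differ in social form. In the brain edgeR called 0 of 64 members (0.00934% of all genes were called), with 16 at an unadjusted p under 0.05, while DESeq2 called 6. LOC105194434 averaged 0.323 CPM in polygyne SB/SB and 1.12 CPM in monogyne SB/SB brains (log2 -1.79 ± 0.57, adjusted p = 0.148, edgeR), and is 1 of the 6 that DESeq2 called. In the ovary edgeR called 1 of 60 members, where 1.05% of all genes were called, 0.945% higher. LOC105194477 (chromosome 14) had 6.77 to 49.0 CPM in polygyne SB/SB and 3.47 to 7.47 CPM in monogyne SB/SB ovaries, a rise of 1.90 ± 0.49 on the log2 scale (adjusted p = 0.0498, edgeR). That call sits at the threshold. It was lost in 11 of 15 fits that left out 1 ovary, namely 1E, 15D, 16D or any of the monogyne ovaries (log2 1.53 to 2.04). Without the ovaries that stand apart the log2 change was 1.52 (adjusted p = 0.0756, edgeR). LOC105194488 (chromosome 14) lay at 974 to 1419 CPM in polygyne SB/SB ovaries, all below the 1506 to 1674 CPM of monogyne SB/SB ovaries, and missed the threshold (log2 -0.37 ± 0.10, adjusted p = 0.0536, edgeR).

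**Figure D3:**
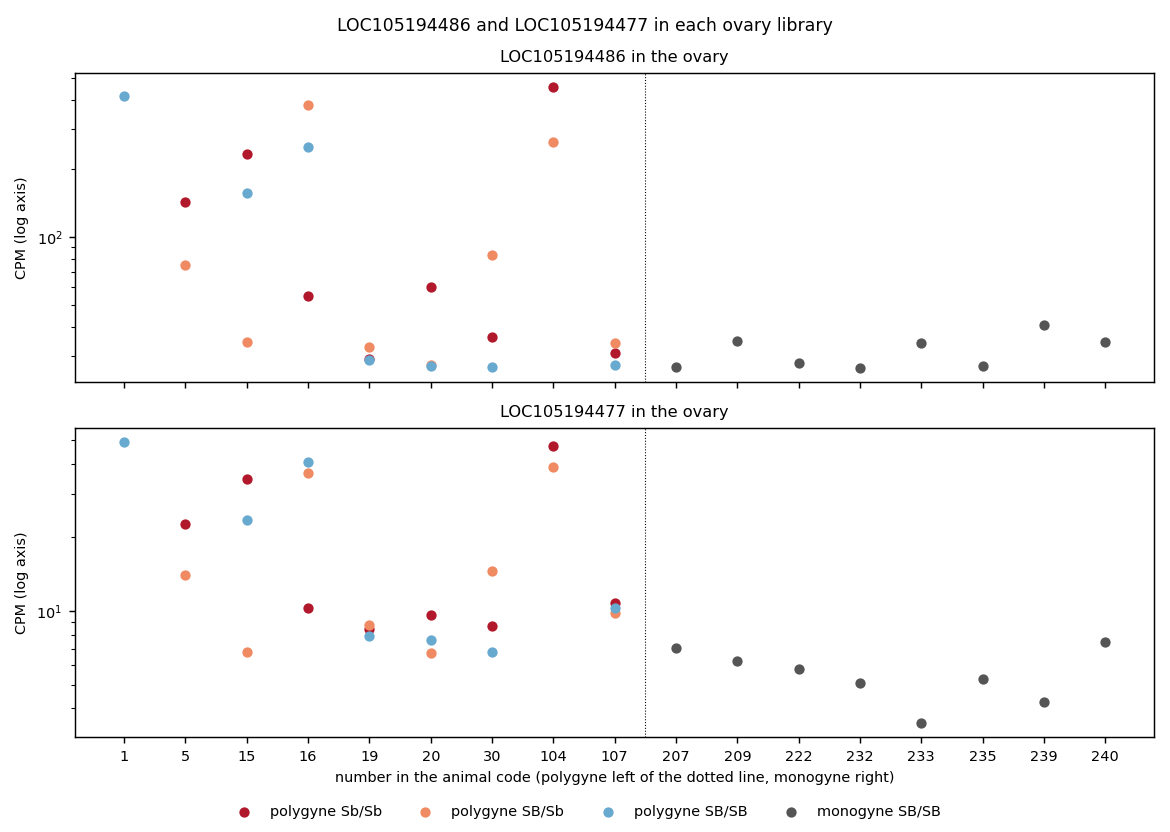
CPM (log axis) of LOC105194486 and LOC105194477 in each ovary library, ordered by the number in the animal code, with polygyne animals left of the dotted line and monogyne animals right. In the polygyne ovaries LOC105194486 spans 26.9 to 456 CPM with all 3 genotypes at both ends, while the 8 monogyne ovaries lie between 26.4 and 40.8 CPM.

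The spread of LOC105194477 in polygyne ovaries was shared by other members. LOC105194486, also on chromosome 14, ranged from 29.2 to 456 CPM in Sb/Sb, from 27.4 to 381 CPM in SB/Sb and from 26.9 to 417 CPM in polygyne SB/SB ovaries, against 26.4 to 40.8 CPM in monogyne SB/SB ovaries. The highest animals were 104G in Sb/Sb, 16C in SB/Sb and 1E in polygyne SB/SB, and those 3 ovaries are among the 5 that stand apart. Of 49 other members compared in the ovary, 5 had the same 8 polygyne ovaries on top as LOC105194486: LOC105194437 (chromosome 10), LOC105194446 (chromosome 9), LOC105194472 and LOC105194477 (chromosome 14) and LOC105194497 (chromosome 6). That is 10.2% of these members, against 7.32% of 8235 genes at the same minimum level, and LOC105194486 was picked after its values were seen. In all, 10 of 50 members (20%) spanned more than 5-fold among polygyne ovaries and under 3-fold among monogyne ovaries, against 25.2% of 8236 genes at the same minimum level, so the members' share is not above that of all genes.

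Brain and ovary differed at most members. Of 65 tested in a fit with the animal as a block, 57 were called, 33 higher in the brain and 24 higher in the ovary, where 82% of all genes were called, 37.2% higher in the brain and 44.8% higher in the ovary. At some called members the brains and ovaries did not overlap. How many of all genes do the same was not counted. LOC105194452 had 146 to 1419 CPM in brains and at most 1.64 CPM in ovaries (31 animals each, on 1 scale for both tissues; log2 10.84 ± 0.33, adjusted p = 3.21e-24, edgeR). LOC105194460 had 8.75 to 39.6 CPM in brains and 0 to 3.03 CPM in ovaries (log2 6.02 ± 0.47, adjusted p = 2.09e-13, edgeR), and LOC105194454 had 0 to 25.5 CPM in brains and at most 0.730 CPM in ovaries. LOC105194476, LOC105194482 and LOC105194496 also had every brain above every ovary. LOC105194443 averaged 9.32 CPM in brains and 0.713 CPM in ovaries, and LOC105194445 averaged 3.04 and 0.0339 CPM, both with overlap.

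**Figure D4:**
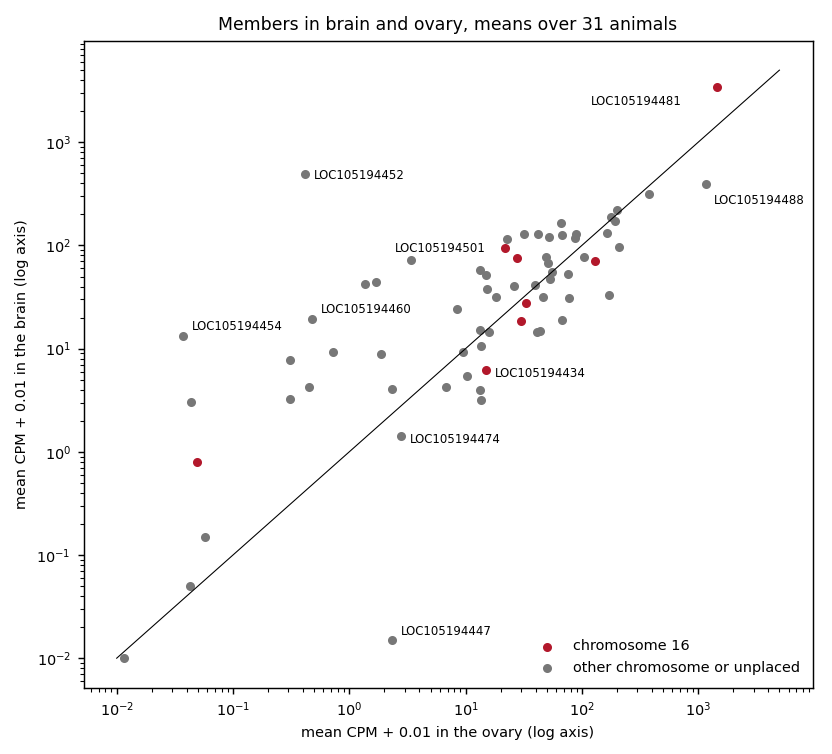
Mean CPM + 0.01 of each member in the brain (vertical) and the ovary (horizontal) over 31 animals, on log axes; the line marks equal levels and red points are on chromosome 16. LOC105194452 lies farthest above the line and LOC105194447 farthest below it.

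In the other direction LOC105194447 (chromosome 9) had 1415 counts over the ovaries and 2 over the brains, with ovaries up to 9.35 CPM. LOC105194459 (unplaced) averaged 3.16 CPM in brains and 13.5 CPM in ovaries, and LOC105194474 (chromosome 14) averaged 1.41 and 2.77 CPM. LOC105194457 (chromosome 7), LOC105194488 and LOC105194500 had every ovary above every brain. LOC105194500 (chromosome 6) stood at 20.0 to 50.8 CPM in brains, all below the ovaries at 62.8 to 248 CPM (log2 for brain minus ovary -2.36 ± 0.11, adjusted p = 7.02e-19, edgeR). LOC105194488 (chromosome 14) was at 394 ± 71.3 CPM in brains and 1174 ± 210 CPM in ovaries (log2 -1.58 ± 0.06, adjusted p = 1.14e-21, edgeR). Of the members with many counts in both tissues, some differed less than LOC105194488. LOC105194489 had 313 ± 82.1 CPM in brains and 376 ± 76.7 CPM in ovaries, and LOC105194465 had 223 ± 44.4 and 199 ± 27.1 CPM, both on chromosome 14. LOC105194481, with the most counts of all, averaged 3423 CPM in brains and 1452 CPM in ovaries (log2 1.35 ± 0.26). The call of LOC105194465 was lost without the low-count filter (log2 0.07). On chromosome 16, 4 members were higher in the brain (LOC105194469, LOC105194481, LOC105194495 and LOC105194501) and 4 in the ovary (LOC105194434, LOC105194441, LOC105194453 and LOC105194461). Averaged over all animals compared, LOC105194434 had the lower level in the tissue with the genotype gap, at 6.23 ± 6.13 CPM in brains and 15.1 ± 6.04 CPM in ovaries. Such brain means pool unlike genotypes. On the scale of the brain fit, Sb/Sb and polygyne SB/SB brains averaged 12.5 and 0.323 CPM for LOC105194434, and 44.0 and 5.05 CPM for LOC105194441. Whether either gene differs between tissues within a genotype was not tested.

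Whether the Sb/Sb against SB/SB change differs between tissues was fitted as the brain effect minus the ovary effect. Its brain values are those that chose the range, so a higher brain effect at LOC105194434, LOC105194441 and LOC105194501 is favoured by that choice, and nothing is read from the members' share. The difference was called at 8 of 65 members (12.3%), 3 higher in the brain and 5 lower, where 6.76% of all genes were called (3.88% higher, 2.87% lower). The 3 higher ones, LOC105194434 (5.40 ± 0.63), LOC105194441 (2.09 ± 0.57) and LOC105194453 (0.62 ± 0.17, adjusted p = 0.0263, edgeR), are consecutive members of the run on chromosome 16, with other genes between them. Of 840 chromosome 16 genes outside the block, 10.2% were called. LOC105199833, among them in the gene table, was called too (3.03 ± 0.62). It overlaps LOC105194441, and LOC105194434 overlaps LOC105194453, so reads in the overlaps cannot be assigned with certainty. LOC105194501, with Sb changes of 5.20 in the brain and 4.73 in the ovary, had a difference of 0.93 ± 0.71 in the fit of both tissues and was not called.

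The 5 with a lower brain effect lie elsewhere. LOC105194476 (-3.25 ± 0.55, adjusted p = 0.00104, edgeR) averaged 24.7 CPM in Sb/Sb and 56.6 CPM in polygyne SB/SB brains, but 3.61 CPM in Sb/Sb and 1.03 CPM in polygyne SB/SB ovaries. LOC105194452 (-3.80 ± 0.90, adjusted p = 0.0122), LOC105194478 (-2.59 ± 0.69, adjusted p = 0.0233), LOC105194472 (-1.45 ± 0.40, adjusted p = 0.0254) and LOC105194496 (-1.03 ± 0.31, adjusted p = 0.0393, all edgeR) are on chromosomes 9, 14, 14 and 6. In a fit of the 25 animals without any library that stands apart, 1 member was called, LOC105194434 (log2 5.41). The other 7 kept their sign.

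Just inside the range by number are LOC105194434 and LOC105194501, whose brain values, given above, fixed its ends. Just outside it, LOC105194433 lies on chromosome 14 and averaged 69.1 ± 5.51 CPM in Sb/Sb and 55.5 ± 17.0 CPM in polygyne SB/SB brains. LOC105194502 lies on chromosome 6 and averaged 117 ± 21.8 CPM in Sb/Sb and 89.0 ± 28.7 CPM in polygyne SB/SB brains. Its Sb/Sb against SB/SB change was called different between brain and ovary (0.96 ± 0.23, adjusted p = 0.0140, edgeR), where 6.76% of all genes were called. Of 11 tested non-member genes within or close to the run on chromosome 16, 1 was called for Sb/Sb against polygyne SB/SB in the brain, LOC105199833. There 0.953% of all genes and 5.14% of 778 chromosome 16 genes outside the block were called. In the ovary the same comparison called 2 of 10, LOC105194416 and LOC105196904. There 14.1% of all genes and 23.3% of 791 chromosome 16 genes outside the block were called.

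Not every member was measured. The low-count filter left 4 members untested in the brain, 8 in the ovary and 3 in the fit of both tissues (LOC105194435, LOC105194440 and LOC105194449). LOC105194440 had 1 count over all libraries, and LOC105194435, annotated as a pseudogene, had 26 counts in brains and 21 in ovaries. LOC105194487 and LOC105194469 passed the filter in the brain but not in the ovary.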

How the data were processed

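Gene counts were deposited by the authors as 1 table of raw read counts per library, with 15710 genes. The submitters' processing notes name STAR 2.5.3a, featureCounts and Trimmomatic 0.32, without roles; the genome build, the strand setting and the featureCounts version are not given in the sources used here. Chromosomes and neighbour order come from the RefSeq gene table of UNIL_Sinv_3.0, in which 63 of 68 members were found by symbol.

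The members and lists were chosen with earlier results of these data known. Groups follow the titles. Counts were fitted over all genes with edgeR 4.0.16 (R 4.3.3; TMM, filterByExpr with a minimum count of 10, quasi-likelihood F-test, Benjamini-Hochberg, call at adjusted p under 0.05), 32 brains or 31 ovaries per fit, and with the animal as a block between tissues. The SE is the log2 change divided by the square root of F. An ovary library under the median total divided by 3 was left out. The fit was tested on simulated data. Named were the 3 genes known beforehand, every member called between groups, the 5 members with the highest mean CPM per tissue and the 5 with the largest tissue difference in each direction. Any other member with values, LOC105194486 among them, and LOC105194488 in the social form comparison, were picked after their values were seen. Alternatives were RLE size factors, no low-count filter, DESeq2 1.42.0, all libraries, only the groups compared, the title number or no animal as a block, and, added after seeing the data, each replicate left out and the libraries that stand apart left out. Those had a median correlation with the other libraries of their tissue under 0.825, on log2(CPM + 1) of genes with a mean of 5 CPM or more. The labels do not say from how many colonies the animals of a group came, so p-values measure the spread between these animals.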

Additional observations from a re-analysis of the deposited data

Results flagged for a closer look

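Single libraries stood far from the other libraries of their group at 10 of 183 combinations of member, tissue and group tested. Chance alone marks about 1 in 20, which is near that number, so the 10 are listed as values only. The SB/Sb brain 16C, which is 1 of the 3 brains that stand apart, was high at 3 of them: LOC105194474 (18.0 CPM; the others 0.0876 to 2.55), LOC105194476 (145 CPM; the others 25.3 to 50.9) and LOC105194496 (96.1 CPM; the others 32.6 to 44.4). Low brains were 104D in polygyne SB/SB for LOC105194438 (0.640 CPM; the others 32.2 to 125), 1E in polygyne SB/SB for LOC105194454 (0 CPM; the others 5.26 to 22.01), 19G in Sb/Sb for LOC105194465 (138 CPM; the others 182 to 231) and 107G in Sb/Sb for LOC105194481 (436 CPM; the others 1491 to 4107). In ovaries, 19G in Sb/Sb was high for LOC105194481 (10243 CPM; the others 597 to 1260), 104G in Sb/Sb was low for LOC105194459 (3.66 CPM; the others 10.6 to 20.8), and 222A in monogyne SB/SB was low for LOC105194488 (1506 CPM; the others 1599 to 1674).

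The Sb/Sb against polygyne SB/SB change was called different between brain and ovary at 8 members. Its brain values chose the range, which favours a higher brain effect at LOC105194434 and LOC105194441, so those values are a description. As brain minus ovary on the log2 scale it was 5.40 for LOC105194434, 2.09 for LOC105194441, 0.62 for LOC105194453, -1.03 for LOC105194496, -1.45 for LOC105194472, -2.59 for LOC105194478, -3.25 for LOC105194476 and -3.80 for LOC105194452.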

How the results depend on the processing

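The alternatives were followed for 54 calls, all those between groups and of the difference between tissues, and 25 of the 57 between tissues. None of these turned sign under the alternatives run. With DESeq2 more members were called: 11 for Sb/Sb and 6 for social form in the brain, 1 for SB/Sb against the midpoint in the brain, 15 for Sb/Sb and 6 for social form in the ovary, and 14 for the difference between tissues. Fitting only the groups compared gave, in the ovary, 7 for social form, 4 when Sb/Sb and 1 when SB/Sb was set beside SB/SB, and 0 between the carriers (Sb/Sb and SB/Sb), and there the brain call of LOC105194441 for SB/Sb was lost (log2 2.84). Without the low-count filter the ovary social form call fell to 0. All 64 libraries gave 5 for the difference between tissues. Without the libraries that stand apart the ovary gave 0 for social form, 4 for Sb/Sb versus polygyne SB/SB and 0 between the carriers, and the difference between tissues gave 1. Leaving out 1 animal gave 4 to 6 brain calls with Sb/Sb and 3 with SB/Sb, each versus polygyne SB/SB. In the ovary it gave 6 to 13 with Sb/Sb, 1 to 3 with SB/Sb, 0 to 1 between the carriers and 0 to 7 for social form. Of these calls, 16 were lost without the libraries that stand apart, 6 without the low-count filter and 0 with RLE size factors. The comparisons with the midpoint and between tissues were not refitted without single animals. The cause of these moves was not tested. Shares of all genes called are not given for these alternatives, so the counts are no result about the members.

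With the title number as a replicate block the ovary gave 9 calls for Sb/Sb and 1 for SB/Sb versus polygyne SB/SB, and 0 between the carriers. There LOC105194452 (SB/Sb), LOC105194499 (both) and LOC105194482 (Sb/Sb) lost their calls versus polygyne SB/SB, and LOC105194441 lost its call between the carriers. The brain gave 5, 3 and 0 in the same order. Deviations of same-numbered animals correlated at a median of 0.0725 over 22 brain pairs (-0.0781 to 0.398; 9 over 0.1) and of 0.276 over 20 ovary pairs (-0.251 to 0.545; 14 over 0.1), against -0.0124 and -0.0176 for different numbers. Not every pair was over 0.1, so the number was not taken as a pairing, though in the ovary it is a hint of one from the data. Depth limits members such as LOC105194452 in the ovary and LOC105194434 in the brain, where the polygyne SB/SB groups rest on 9 and 43 counts.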
